A study of Mus musculus with 4 samples.

Results

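The 10 genes described here are brakes on the keratinocyte cell cycle and markers commonly read in senescence: Cdkn1a, Cdkn1b, Cdkn1c, Cdkn2a, Cdkn2b, Trp53, Mdm2, Lmnb1, Hmgb1 and Gdf15. They were chosen by gene symbol, and all 10 were found among the 17958 genes of the deposited table. The 4 RNA-seq libraries were made from epidermis of mice, 2 of them carrying the label IL-36Ra-cKO and 2 the label IL-36Rafl/fl. IL-36Ra is the antagonist of the IL-36 receptor, and fl/fl denotes floxed alleles of its gene, the control genotype beside its conditional knockout (cKO). The genotype field of the labels calls the first group an IL-36Ra knockdown and the second WT, and the treatment field reads None for all 4 libraries. The labels give no age, no sex and no Cre driver, and do not state that replicates are separate animals, so p-values measure the spread between these libraries, which may be technical.

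The targeted gene was still read in the cKO-labelled libraries. Counts per gene do not show whether its floxed part was deleted. Il1f5, the symbol of the antagonist gene in the table, stood at 222 and 165 CPM (counts scaled to library size with TMM factors) in cKO-labelled libraries 1 and 2 and at 254 and 203 CPM in fl/fl-labelled libraries 1 and 2 (log2 fold change -0.24 ± 0.24 SE, edgeR adjusted p = 0.509). Every direction below is therefore between libraries as labelled, cKO minus fl/fl. Total counts ran from 14622791 to 16490602. All 13 interfollicular keratinocyte markers were read, with a summed level of 23331 to 26951 TPM (a level per transcript length that sums to the same total in each library). Single markers moved within that sum. Lor stood at 1479 and 812 TPM in the cKO-labelled and 326 and 295 TPM in the fl/fl-labelled pair. Krt15 stood at 1065 and 778 against 329 and 361 TPM, both genes named after their values were seen. Log2 fold changes were positive for 7 of the 13 and negative for 6. Markers of other tissue and cell types moved between libraries too. T cell markers (6 read) summed to 134 and 157 TPM in the cKO-labelled and 80.5 and 104 TPM in the fl/fl-labelled pair. The 5 melanocyte markers summed to 183 and 14.4 TPM in the cKO-labelled and 472 and 448 TPM in the fl/fl-labelled pair. The 18 hair follicle and shaft markers summed to 3419 and 14.6 TPM in cKO-labelled libraries 1 and 2, with 10 of them at 0 in library 2 (among them Krt71, Krt35 and Shh), and to 10374 and 10553 TPM in the fl/fl-labelled pair. The 8 skeletal muscle markers summed to 1261 TPM in cKO-labelled library 2 against 45.5 to 123 TPM elsewhere, and Myod1 was at 0 in cKO-labelled library 1 and fl/fl-labelled library 1. Transcripts of the Y chromosome such as Ddx3y (28.6 and 36.4 against 0 and 0.02 TPM) were high in the cKO-labelled libraries only, so an apparent difference in sex and the genotype label cannot be told apart. In bulk RNA, fewer cells of a type and less RNA per cell cannot be told apart either.

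Cyclin-dependent kinases (CDKs) drive the cell cycle, and their inhibitors stop it. The Cip/Kip inhibitors p21, p27 and p57 (Cdkn1a, Cdkn1b, Cdkn1c) bind cyclin-CDK complexes, whereas the INK4 inhibitors p15 and p16 (Cdkn2b, Cdkn2a) bind CDK4 and CDK6 and keep the retinoblastoma protein active. The transcription factor p53 (Trp53) induces Cdkn1a and also Mdm2, the ubiquitin ligase that destroys p53. In epidermis these brakes accompany the exit of basal keratinocytes from the cycle as they differentiate, and in senescent cells p21 or p16 accumulates while lamin B1 (Lmnb1) is lost.

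Among these genes, the p21 gene Cdkn1a and the p15 gene Cdkn2b stood higher in both cKO-labelled libraries, Lmnb1 and Hmgb1 stood lower, and Trp53 and Mdm2 lay close together. No gene of the set passed edgeR's threshold. With edgeR's quasi-likelihood test, adjusted over all 14459 genes tested, 0 of the 9 set genes that passed the low-count filter were called at 0.05, where 0.0277% of all tested genes were (4 genes, all higher, 3 of them Y-linked). At an unadjusted p under 0.05 there were 3 of the 9, Cdkn1a and Cdkn2b higher and Lmnb1 lower, against 32.1% of all genes tested. By DESeq2, Lmnb1 alone of the 10 was called, against 14.2% of all 17925 genes it tested, low-count genes included (6.3% higher and 7.87% lower). The CPM ranges of the groups did not overlap for 5 of the 9, 3 higher and 2 lower in the cKO-labelled libraries, where 67.7% of all tested genes did not overlap (34.8% higher and 32.9% lower). These shares lie near or under the background, so these counts do not set the genes apart. Other settings gave higher shares at an unadjusted p under 0.05. DESeq2 had 6 of the 10 there, beside 25.9% of all genes, and edgeR without a filter 5 of the 10, beside 27.6%. The median log2 fold change of the 9 was -0.15, beside 0.00022 over all genes tested.

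**Figure D1:**
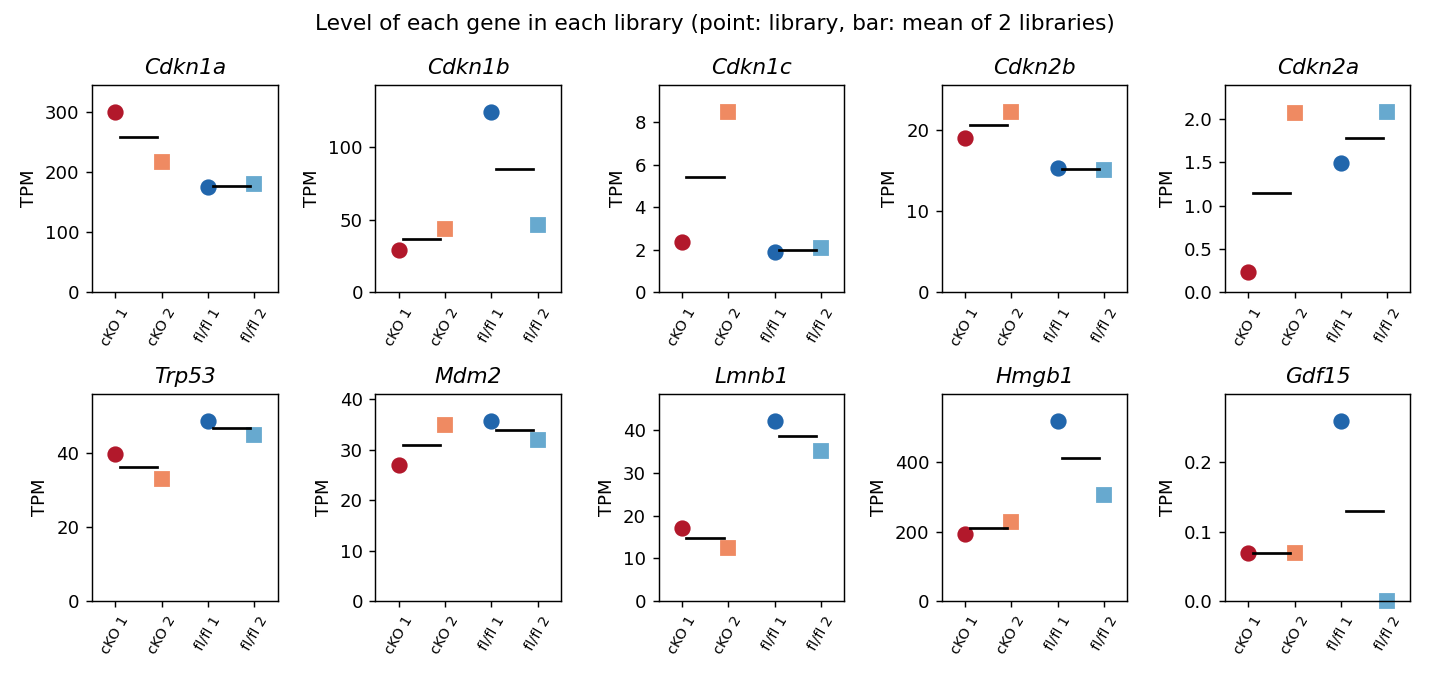
Level in TPM (y axis, linear, each panel on its own scale from 0) of the 10 genes in the 4 libraries (x axis); points are libraries and bars the mean of 2 libraries. Cdkn1a and Cdkn2b were higher and Lmnb1 and Hmgb1 lower in both cKO-labelled libraries, while Cdkn1b was set by fl/fl-labelled library 1 (124 TPM) and Cdkn1c by cKO-labelled library 2 (8.47 TPM).

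Cdkn1a was the most abundant brake in every library. It stood at 428 and 295 CPM in cKO-labelled libraries 1 and 2 and at 208 and 225 CPM in fl/fl-labelled libraries 1 and 2. Both cKO-labelled libraries were above both fl/fl-labelled ones, and the cKO-labelled pair differed more between themselves. The group means were 361 ± 93.7 and 216 ± 12.1 CPM (SD, n = 2 libraries each), the log2 fold change was 0.74 ± 0.25 (SE) and the edgeR adjusted p was 0.133. The fold of 1.67 had a 95% interval of 1.06 to 2.64. The fold change was positive in all 14 alternatives, from 0.45 without cKO-labelled library 1 to 0.98 without cKO-labelled library 2.

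Handling-stress genes moved in the same direction as Cdkn1a. The 12 genes of that list, immediate early genes such as Fos and heat shock genes such as Hspa1a, summed to 2099 and 1168 TPM in the cKO-labelled and 760 and 855 TPM in the fl/fl-labelled pair. At an unadjusted p under 0.05, 9 of the 12 were higher, where 16.5% of all genes were. DESeq2 called 7 of the 12 after adjustment, all higher, beside 6.3% of all genes. Fewer of the 12 reached that unadjusted p without cKO-labelled library 1 or without either fl/fl-labelled library, and more without cKO-labelled library 2. The share of all genes at that p fell in each of these fits, which leave a single library in a group. The stress factor Atf3 was at 221 TPM in cKO-labelled library 1 and at 14.4 to 24.2 TPM in the other 3. Their part in the level of Cdkn1a was not tested.

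Sequence just upstream of the annotated starts is shown for Cdkn1a and Mdm2, p53 targets whose windows held a p53 half-site. It is also shown for Cdkn2b, the INK4 gene of the set that stood higher. RefSeq windows (build GRCm38.p6, 250 bases before to 50 after a start) were matched by symbol for 8 of the 10 genes, all but Cdkn1c and Lmnb1. Positions are counted from the start site, with negative numbers before it. Capitals mark the p53 half-site, a part of a p53 binding site, in the first window of Cdkn1a and in Mdm2. Its 10-base pattern is RRRCWWGYYY (R is A or G, W is A or T, Y is C or T), and only full matches were marked. In the second window of Cdkn1a and in Cdkn2b, capitals mark the GC box GGGCGG on either strand.
Cdkn1a first start, chr17:29090729-29091028, plus strand: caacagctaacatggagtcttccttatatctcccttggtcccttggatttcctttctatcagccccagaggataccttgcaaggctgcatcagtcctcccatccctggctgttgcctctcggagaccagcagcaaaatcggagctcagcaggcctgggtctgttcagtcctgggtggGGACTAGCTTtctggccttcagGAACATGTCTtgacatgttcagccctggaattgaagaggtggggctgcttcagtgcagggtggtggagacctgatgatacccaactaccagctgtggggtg
Cdkn1a second start, chr17:29093519-29093818, plus strand: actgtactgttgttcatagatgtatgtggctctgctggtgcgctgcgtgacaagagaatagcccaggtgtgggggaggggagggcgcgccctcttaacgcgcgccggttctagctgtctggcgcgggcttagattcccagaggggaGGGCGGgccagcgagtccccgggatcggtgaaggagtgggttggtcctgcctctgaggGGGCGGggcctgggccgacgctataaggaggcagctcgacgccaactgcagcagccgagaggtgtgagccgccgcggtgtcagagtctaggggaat
Mdm2, chr10:117710709-117711008, minus strand: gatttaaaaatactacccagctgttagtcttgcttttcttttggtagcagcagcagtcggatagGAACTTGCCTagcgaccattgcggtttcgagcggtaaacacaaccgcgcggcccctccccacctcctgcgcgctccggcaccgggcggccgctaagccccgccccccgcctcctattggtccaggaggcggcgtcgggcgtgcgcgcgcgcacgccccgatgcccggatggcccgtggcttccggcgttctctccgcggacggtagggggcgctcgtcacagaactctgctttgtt
Cdkn2b, chr4:89310983-89311282, minus strand: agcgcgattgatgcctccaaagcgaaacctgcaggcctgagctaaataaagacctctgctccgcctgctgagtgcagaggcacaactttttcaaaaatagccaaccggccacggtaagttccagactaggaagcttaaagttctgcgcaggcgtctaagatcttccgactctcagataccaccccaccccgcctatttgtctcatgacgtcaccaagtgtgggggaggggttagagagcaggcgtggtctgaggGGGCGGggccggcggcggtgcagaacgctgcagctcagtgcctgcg
The first Cdkn1a window held the p53 half-site at 2 places, starting at -73 and -51. The stretch directly after the match at -51 misses the pattern at its first letter only and was not marked. The Mdm2 window held a single half-site at -186, beside 2 GC boxes. Trp53 held 1 match at -75, and the windows of the other 5 genes searched held none, Gdf15, another p53 target, among them. Of 32851 RefSeq windows, 8.36% held at least 1 match on either strand and 0.359% at least 2. The second Cdkn1a window held GC boxes starting at -104 and -46, and the Cdkn2b window held 1 starting at 5, where 35.7% of all windows held a GC box. A match is a string of letters and was not tested for binding. Counts per gene do not show which Cdkn1a start was used.

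The other Cip/Kip genes each rested on a single library. Cdkn1b, whose product p27 holds resting cells out of the cycle, stood at 54.3 and 77.1 CPM in the cKO-labelled libraries and at 193 and 74.9 CPM in the fl/fl-labelled ones. Fl/fl-labelled library 1 stood apart, and the groups overlapped in CPM, though not in TPM (29.5 and 43.7 against 124 and 46.2). The log2 fold change was -1.03 ± 0.49 (SE, edgeR adjusted p = 0.212), and it was -0.19 without fl/fl-labelled library 1 and -1.57 without fl/fl-labelled library 2. Reads of fl/fl-labelled library 1 also lay on longer transcripts, with a ratio of summed TPM to summed FPKM of 1.47 against 1.16 to 1.25 in the other 3. Among the 191 pathway genes with a mean of at least 5 CPM, the profile most like that of Cdkn1b over the 4 libraries was that of Sirt1, a deacetylase that acts on p53, at a root mean square difference of 0.127 log2 units. Sirt1 stood at 45.0, 54.8, 164 and 67.7 CPM in the same order of libraries. The part of that library's read distribution in these values was not tested.

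Cdkn1c, the imprinted gene of p57, stood at 3.40 and 11.5 CPM in the cKO-labelled and at 2.24 and 2.62 CPM in the fl/fl-labelled pair. Only cKO-labelled library 2 was far from the rest. The log2 fold change was 1.62 ± 0.64 (SE, edgeR adjusted p = 0.161), with 0.48 without cKO-labelled library 2. Without cKO-labelled library 1 it was 2.24 with an edgeR adjusted p of 0.0304, within a range of 0.0304 to 0.460 over the 14 alternatives. The library with the high level is the one with 1261 TPM of skeletal muscle markers, and its 8 dermal fibroblast markers summed to 2008 TPM against 1045 to 1308 TPM elsewhere. Their part in the level of Cdkn1c was not tested.

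As a share of summed Cip/Kip TPM, Cdkn1a made up 90.4% and 80.7% in cKO-labelled libraries 1 and 2 and 58.1% and 78.9% in fl/fl-labelled libraries 1 and 2. Cdkn1b made up 8.89% and 16.2% against 41.3% and 20.2%, and Cdkn1c at most 3.14%. The mix of brakes thus differed most in fl/fl-labelled library 1, and the sum of the 3 genes, 332 and 270 against 301 and 229 TPM, overlapped between the groups.

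Cdkn2b, an INK4 gene, stood at 18.6 and 20.5 CPM in the cKO-labelled and at 12.4 and 12.6 CPM in the fl/fl-labelled pair. The groups did not overlap, and the means were 19.6 ± 1.33 and 12.5 ± 0.186 CPM (SD, n = 2 each). The log2 fold change was 0.65 ± 0.18 (SE), the 95% interval of the fold 1.13 to 2.18 and the edgeR adjusted p 0.105. The fold change stayed between 0.41 and 0.72 in all 14 alternatives, with adjusted p values of 0.0985 to 0.378.

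The p19 INK4 gene Cdkn2d, a relative with the same CDK targets, had the profile most like that of Cdkn2b (root mean square difference 0.0803 log2 units over the 4 libraries). It stood at 27.7 and 28.7 CPM against 15.8 and 16.8 CPM, a log2 fold change of 0.79 ± 0.16 (SE, edgeR adjusted p = 0.0800). The ratio of Cdkn2b to Cdkn2d in TPM was 0.600 and 0.634 in the cKO-labelled and 0.693 and 0.666 in the fl/fl-labelled pair. These lay close together but did not overlap, with the cKO-labelled pair lower. The p18 gene Cdkn2c (-0.07 ± 0.21 SE) and the phosphatase gene Cdkn3 (-0.24 ± 0.33 SE) overlapped between the groups. Of these 3 further inhibitor genes, none passed edgeR's threshold. DESeq2 called Cdkn2d higher (adjusted p = 0.0274), beside 6.3% of all genes.

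Cdkn2a, the locus best known for senescence, was near the limit of detection. Its counts were 2 and 16 in the cKO-labelled and 10 and 17 in the fl/fl-labelled pair, at most 2.08 TPM. The groups overlapped, and the log2 fold change of -0.48 ± 0.89 (SE, edgeR adjusted p = 0.719) turned to 0.33 without cKO-labelled library 1. Its 95% fold interval, 0.144 to 3.57, covers changes in either direction. The locus encodes both p16 and the p53 activator p19Arf from separate starts, and counts per gene do not separate them. A list of 15 polycomb proteins and demethylases that are known to act on this locus had a median log2 fold change of 0.015, which was -0.16 without cKO-labelled library 1. An unadjusted p under 0.05 was reached by 4 higher and 4 lower, beside 16.5% and 15.6% of all genes, none of them past edgeR's threshold. DESeq2 called 5 of the 15, Cbx7 and Ezh1 higher and Kdm6a, Suz12 and Bmi1 lower, beside 6.3% and 7.87% of all genes. Cbx7, a polycomb repressor of Cdkn2a, stood at 37.0 and 35.4 against 15.5 and 15.7 CPM (1.22 ± 0.16 SE, edgeR adjusted p = 0.0669). The H3K27 demethylase gene Kdm6a was at -1.41 ± 0.26 and the methyltransferase gene Ezh1 at 0.73 ± 0.16 (SE, edgeR adjusted p = 0.0740 and 0.0820).

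**Figure D2:**
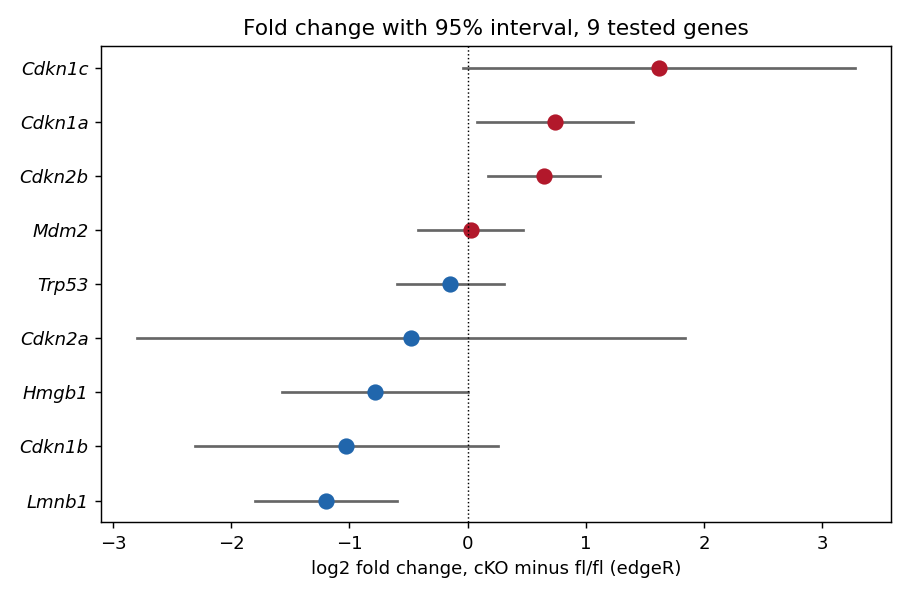
Log2 fold change, cKO minus fl/fl (x axis), of the 9 genes that passed the low-count filter, with the 95% interval from edgeR as a line. The intervals of Cdkn1a, Cdkn2b and Lmnb1 exclude 0 before adjustment, and none of the 9 passed after adjustment over all genes.

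Trp53 and its ligase gene Mdm2 lay within narrow ranges. Trp53 stood at 53.1 and 42.0 CPM in the cKO-labelled and at 53.5 and 51.7 CPM in the fl/fl-labelled pair. The groups overlapped, and the log2 fold change was -0.15 ± 0.17 (SE, edgeR adjusted p = 0.572), with a 95% fold interval of 0.659 to 1.24. It was 0.013 without cKO-labelled library 2. In TPM the groups did separate, at 39.6 and 32.9 against 48.7 and 44.8 TPM, a scale on which the median log2 fold change of all genes was -0.16. Mdm2 stood at 64.2 and 78.1 against 72.1 and 67.7 CPM, with a fold interval of 0.749 to 1.38 (edgeR adjusted p = 0.925). No direction is given for Mdm2, since its sign depended on the scaling. These intervals bound the difference, and a p that misses the threshold does not show equal levels.

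Ratios between genes of the same library do not depend on scaling between libraries. Cdkn1a per Trp53, in TPM, was 7.57 and 6.62 in the cKO-labelled and 3.58 and 4.04 in the fl/fl-labelled pair. Cdkn1a per Mdm2 was 11.1 and 6.21 against 4.88 and 5.66. Mdm2 per Trp53 was 0.681 and 1.06 against 0.735 and 0.713. The first 2 ratios did not overlap between the groups and the third did. With 2 libraries against 2, an exact two-sided permutation test cannot give a p under 0.333, so the 12 ratios computed are descriptions.

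**Figure D3:**
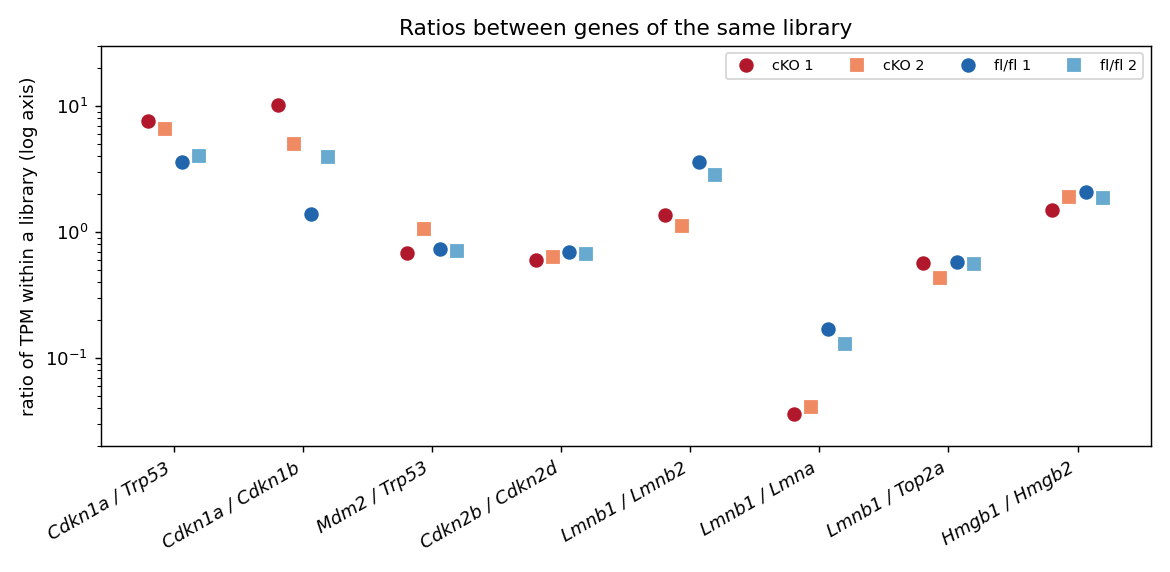
Ratios of TPM between named genes of the same library (y axis, log scale), with 4 points per ratio, 1 per library. Cdkn1a per Trp53 and per Cdkn1b, Cdkn2b per Cdkn2d and the Lmnb1 ratios to Lmna and Lmnb2 separate the groups. Mdm2 per Trp53, Lmnb1 per Top2a and Hmgb1 per Hmgb2 overlap.

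Counts for other targets of p53 lay near those of all genes. Of 29 tested, an unadjusted p under 0.05 was reached by 4 higher and 3 lower, where 16.5% and 15.6% of all genes were, and none passed edgeR's threshold. DESeq2 called 3 of them, Fas and Phlda3 higher and Trp53inp1 lower, beside 6.3% and 7.87% of all genes. The median log2 fold change of the 29 was 0.21, and it was 0.10 without cKO-labelled library 1 and 0.059 on log2(TPM + 1). The death receptor gene Fas stood at 16.1 and 17.4 against 7.61 and 8.20 CPM (1.08 ± 0.20 SE, edgeR adjusted p = 0.0740). Phlda3, an inhibitor of AKT signalling, was at 0.94 ± 0.19 and the DNA damage sensor gene Ddb2 at 0.93 ± 0.27 (SE, edgeR adjusted p = 0.0786 and 0.107). The 3 lower targets, named after their values were seen, were the stress-induced gene Trp53inp1 at -1.47 ± 0.45, the ribonucleotide reductase gene Rrm2b at -0.90 ± 0.30 and the growth arrest gene Gadd45a at -0.68 ± 0.21 (SE, edgeR adjusted p = 0.116, 0.128 and 0.118). Of 19 regulators and relatives of p53, DESeq2 called Chek1 and Sirt1, both lower, beside 7.87% of all genes. The same unadjusted p was reached by 0 higher and 4 lower of the 19, with a median of -0.14. Without fl/fl-labelled library 1 the median was -0.027, with Chek1 at -0.79 and Atm at -0.47. The median was -0.076 without cKO-labelled library 1 and -0.27 without cKO-labelled library 2 or fl/fl-labelled library 2. The checkpoint kinase gene Chek1 stood at -1.31 ± 0.35, the damage kinase gene Atm at -0.81 ± 0.26 and the p53 kinase gene Hipk2 at -0.49 ± 0.17 (SE, edgeR adjusted p = 0.0990, 0.124 and 0.141).

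The cyclins and CDKs that the brakes act on were mostly lower in the cKO-labelled libraries, with none past edgeR's threshold over all genes. Of 12 tested, 11 lay below 0 (median log2 fold change -0.71), and an unadjusted p under 0.05 was reached by 6 lower and 1 higher, where 15.6% and 16.5% of all genes did so. DESeq2 called 4 of the 12, all lower, beside 7.87% of all genes: Ccna2, Ccnb1, Ccnb2 and Ccne2. Without cKO-labelled library 2 the median was -0.41. The mitotic cyclin gene Ccnb1 stood at 45.8 and 48.4 against 113 and 85.1 CPM (-1.07 ± 0.20 SE, edgeR adjusted p = 0.0740). Ccne2, a cyclin of the entry into S phase, stood at 10.1 and 7.59 against 59.9 and 23.0 CPM (-2.23 ± 0.51, adjusted p = 0.0844 by edgeR). Ccnb2 was at -0.72 ± 0.17 (SE). The single member with a positive value was Ccnd3, chosen after its values were seen, at 0.53 ± 0.15 (SE, edgeR adjusted p = 0.109).

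Of 17 RB and E2F genes, 14 lay below 0 (median -0.44), and an unadjusted p under 0.05 was reached by 8 lower and 1 higher, beside 15.6% and 16.5% of all genes. DESeq2 called 6, all lower, beside 7.87% of all genes. The median was -0.43 without cKO-labelled library 1 and -0.56 without cKO-labelled library 2. It was -0.39 without fl/fl-labelled library 1 and -0.58 without fl/fl-labelled library 2. The E2F repressor gene E2f7 was at -1.58 ± 0.23 and the retinoblastoma gene Rb1 at -1.54 ± 0.37 (SE, edgeR adjusted p = 0.0678 and 0.0891). E2f8, another such repressor, stood at 9.93 and 11.8 against 24.9 and 18.7 CPM (edgeR adjusted p = 0.0882). Rb1 stood at 45.9 and 52.6 against 192 and 95.7 CPM, again with fl/fl-labelled library 1 highest. Of 13 genes that turn over p21 and p27, 3 were lower and 0 higher at that p, beside 15.6% and 16.5% of all genes, with a median of -0.31. DESeq2 called these 3, beside 7.87% of all genes lower. Dtl and Skp2, which target p21 and p27 for degradation, were at -1.48 ± 0.29 and -0.80 ± 0.21 (SE, edgeR adjusted p = 0.0772 and 0.0951). The scaffold gene Cul4b was at -1.57 ± 0.46 (SE, edgeR adjusted p = 0.109). Cul4b stood at 46.7 and 61.0 against 225 and 94.2 CPM, again with fl/fl-labelled library 1 highest.

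**Figure D4:**
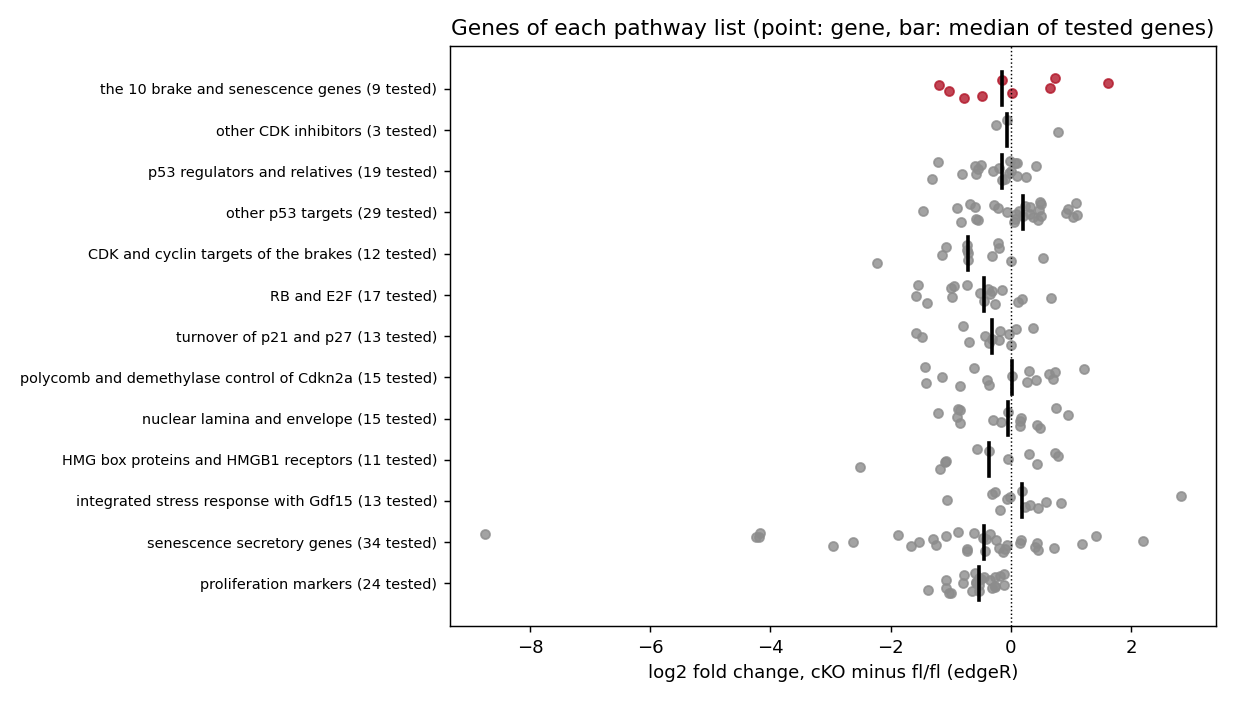
Log2 fold change, cKO minus fl/fl (x axis), of every tested gene of the 10 genes (red, 9 tested) and of 12 pathway lists (grey), with the median of each list as a bar. Proliferation markers lie below 0 for 24 of 24, whereas the medians for p53 targets (0.21) and nuclear lamina genes (-0.05) lie nearer to 0.

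Lmnb1, which encodes the lamin of the nuclear lamina that is lost in senescent cells and is abundant in cycling ones, had the smallest p of the set. It stood at 38.0 and 26.3 CPM in the cKO-labelled and at 78.9 and 68.5 CPM in the fl/fl-labelled pair. Both cKO-labelled libraries were well under both fl/fl-labelled ones, at means of 32.1 ± 8.27 and 73.7 ± 7.35 CPM (SD, n = 2 each). The log2 fold change was -1.20 ± 0.23 (SE), the 95% interval of the fold 0.288 to 0.660 and the edgeR adjusted p 0.0759. The fold change was negative in all 14 alternatives, from -1.49 without cKO-labelled library 1 to -0.96 without cKO-labelled library 2. It was called by DESeq2 (adjusted p = 0.00103) and by edgeR without cKO-labelled library 1 (adjusted p = 0.0408), within a range of 0.00103 to 0.290 over the alternatives.

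The other lamin genes were not lower in the cKO-labelled libraries. Lmna, the lamin of differentiated cells, stood at 869 and 558 against 406 and 445 CPM, a log2 fold change of 0.74 ± 0.29 (SE, edgeR adjusted p = 0.156), and its profile was the closest to that of Cdkn1a among the 191 pathway genes, at a root mean square difference of 0.0374 log2 units. Lmnb2 stood at 33.6 and 28.1 against 26.5 and 28.9 CPM. Lmnb1 per Lmna in TPM was 0.0360 and 0.0407 in the cKO-labelled and 0.171 and 0.129 in the fl/fl-labelled pair, and Lmnb1 per Lmnb2 was 1.36 and 1.12 against 3.60 and 2.86. Of 15 lamina and envelope genes besides Lmnb1, with Lmna and Lmnb2 counted, 1 higher and 4 lower reached an unadjusted p under 0.05, beside 16.5% and 15.6% of all genes. DESeq2 called 4, Lemd2 higher and Lbr, Lemd3 and Zmpste24 lower, beside 6.3% and 7.87% of all genes. The median of the 15, -0.05, was 0.09 without fl/fl-labelled library 1. The 5 included Lbr, the lamin B receptor, at -1.20 ± 0.25, the prelamin A protease gene Zmpste24 at -0.89 ± 0.18 and the inner membrane protein gene Lemd2 at 0.95 ± 0.16 (SE, edgeR adjusted p = 0.0799, 0.0789 and 0.0711).

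Proliferation markers were lower in the same libraries as Lmnb1. All 24 lay below 0 (median log2 fold change -0.53), with 13 at an unadjusted p under 0.05 (15.6% of all genes were lower at that p) and none past edgeR's threshold. DESeq2 called 8 of the 24, all lower, beside 7.87% of all genes. The median was -0.67 without cKO-labelled library 1 and -0.41 without cKO-labelled library 2. It was -0.63 without fl/fl-labelled library 1 and -0.49 without fl/fl-labelled library 2. The mitotic motor genes Kif11 and Cenpe were at -1.08 ± 0.15 and -1.07 ± 0.15, and the replication helicase gene Mcm4 at -0.80 ± 0.14 (SE, edgeR adjusted p = 0.0669, 0.0669 and 0.0740). Per unit of the topoisomerase gene Top2a, Lmnb1 stood at 0.568 and 0.435 in the cKO-labelled and 0.582 and 0.563 in the fl/fl-labelled pair, and these ratios overlapped. Per unit of the proliferation marker gene Mki67 it stood at 0.624 and 0.405 against 0.866 and 0.708, and these did not overlap. Hair follicle markers, which include the growing matrix factors Msx2 and Shh, were also lower there, and their part in the level of Lmnb1 was not tested.

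Hmgb1, a chromatin protein that senescent cells release as an alarm signal, stood at 431 and 488 CPM in the cKO-labelled and at 979 and 605 CPM in the fl/fl-labelled pair. The groups did not overlap, but fl/fl-labelled library 1 was again far above its partner. The log2 fold change was -0.78 ± 0.30 (SE, edgeR adjusted p = 0.157), and it was -0.40 without fl/fl-labelled library 1 and -1.11 without fl/fl-labelled library 2. Hmgb1 has many near-identical processed copies in the mouse genome, so its count is uncertain where the counting split reads among them. The profile nearest to it was that of Atm (root mean square difference 0.0516 log2 units), at 25.1 and 30.7 against 59.1 and 38.6 CPM. Its relative Hmgb2 stood at 267 and 239 against 443 and 302 CPM, and Hmgb1 per Hmgb2 in TPM was 1.51 and 1.91 against 2.07 and 1.87, which overlapped. Hmgb1 per Hmgn1, a nucleosome-binding protein gene, was 0.460 and 0.411 against 0.857 and 0.542, which did not overlap.

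Of 11 HMG proteins and HMGB1 receptors tested, 3 lower and 0 higher genes reached an unadjusted p under 0.05, beside 15.6% and 16.5% of all genes, with a median of -0.36. DESeq2 called the same 3, beside 7.87% of all genes lower. Without cKO-labelled library 1 the median was -0.12. The 3 lower genes were Hmgb3 (-1.09 ± 0.26), the innate receptor gene Tlr2 (-1.17 ± 0.28) and the growth-linked gene Hmga2 (-2.50 ± 0.74 SE), with edgeR adjusted p values of 0.0884, 0.0895 and 0.111. Hmga2 was low throughout, at 0.408 and 0.528 against 1.22 and 4.13 CPM. Hmgb3 also had the profile closest to that of Lmnb1 (root mean square difference 0.103 log2 units).

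Gdf15, a secreted stress factor induced by p53 and by the integrated stress response, was barely read. It had 1 count in each cKO-labelled library, 3 counts in fl/fl-labelled library 1 and 0 in fl/fl-labelled library 2, where a count of 0 allows up to 0.182 CPM before TMM scaling. No fold is given, since neither group exceeded 3 counts per library. Of 13 genes of the integrated stress response, 1 higher and 0 lower genes reached an unadjusted p under 0.05, beside 16.5% and 15.6% of all genes. The median of the 13 was 0.18, and it was -0.11 without cKO-labelled library 1. DESeq2 called 0 of the 13, beside 14.2% of all genes. Its unadjusted p was under 0.05 for 1 higher and 1 lower gene, beside 25.9% of all genes in either direction. The gene higher by edgeR was Ddit3, which encodes the stress factor CHOP, at 18.6 and 23.0 against 12.5 and 10.9 CPM (0.83 ± 0.21 SE, edgeR adjusted p = 0.0940). The phosphatase subunit gene Ppp1r15a was at 0.59 ± 0.23 and the glutathione-degrading enzyme gene Chac1 at -1.07 ± 0.46 (SE, edgeR adjusted p = 0.161 and 0.181).

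Of 34 listed secreted factors that senescent cells are known to release, none passed edgeR's threshold. Among them, 11 lower and 3 higher genes reached an unadjusted p under 0.05, beside 15.6% and 16.5% of all genes, and the median log2 fold change was -0.45. DESeq2 called 10 of them, 7 lower and 3 higher, beside 7.87% and 6.3% of all genes. Without fl/fl-labelled library 2 the median was -0.13, and it was -0.76 without fl/fl-labelled library 1 and -0.69 without cKO-labelled library 1. Mmp13 and Cxcl5 were called in 3 of the 14 alternatives. The collagenase gene Mmp13 stood at 2.45 and 1.78 against 26.5 and 53.5 CPM (-4.24 ± 0.46 SE, edgeR adjusted p = 0.0656). The cytokine gene Il6 stood at 0.340 and 0.330 against 3.60 and 8.84 CPM, and the neutrophil chemokine gene Cxcl5 at 0.0680 and 0 against 10.4 and 25.4 CPM. The 3 higher ones, given here after their values were seen, were the growth factor binding protein genes Igfbp6 at 16.5 and 26.5 against 3.4 and 5.93 CPM and Igfbp3 at 168 and 227 against 88.8 and 85.2 CPM, and the chemokine gene Ccl20 at 6.94 and 10.5 against 3.80 and 2.73 CPM.

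In order of level per length, Cdkn1a led the brakes in both groups, at 259 ± 58.3 TPM in the cKO-labelled and 178 ± 4.53 TPM in the fl/fl-labelled pair (SD, n = 2 each). In the cKO-labelled libraries its range overlapped that of Hmgb1 (211 ± 24.3 TPM), whereas in the fl/fl-labelled ones Hmgb1 was above it (413 ± 150 TPM). Cdkn1b, Trp53 and Mdm2 followed at 36.6, 36.2 and 31.0 TPM in the cKO-labelled group, where neighbours overlapped. Lmnb1 came next after Trp53 in the fl/fl-labelled pair (38.6 ± 5.03 TPM), overlapping Mdm2 (33.9 ± 2.70 TPM), and came after Cdkn2b (20.5 ± 2.28 TPM) in the cKO-labelled ones (14.7 ± 3.40 TPM). Cdkn1c, Cdkn2a and Gdf15 were the 3 lowest in both groups.

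**Figure D5:**
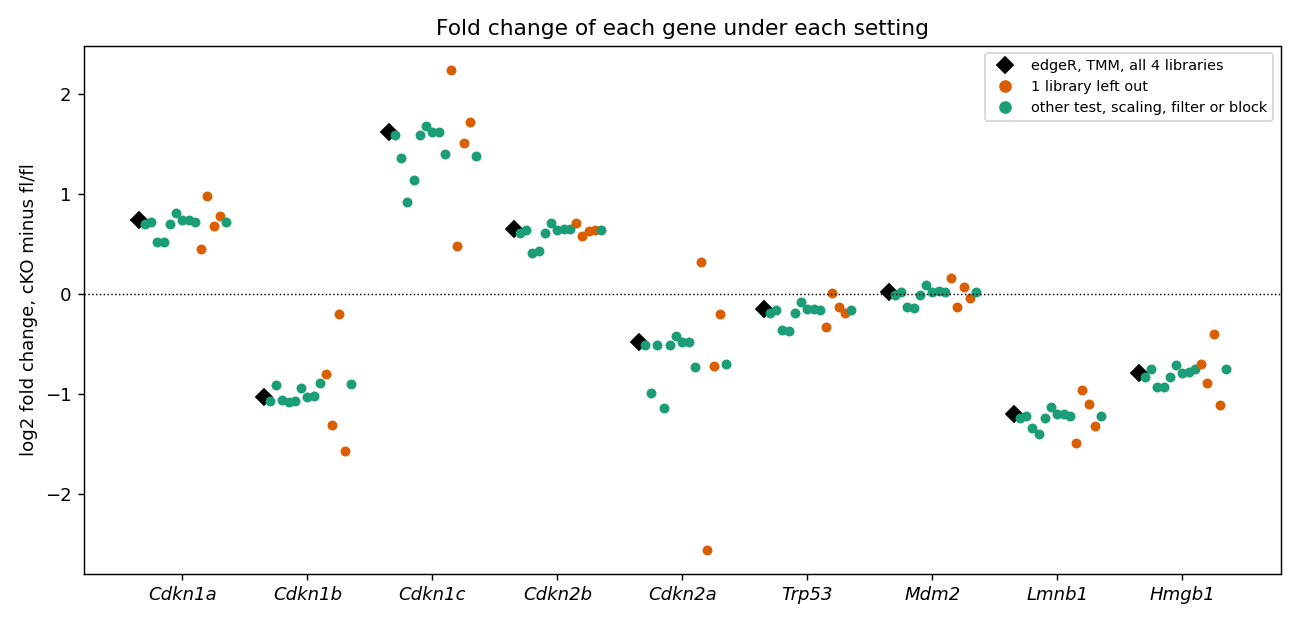
Log2 fold change, cKO minus fl/fl (y axis), of the 9 tested genes under each setting: black diamonds are edgeR with TMM on all 4 libraries, orange points leave out 1 library and green points change the test, scaling, filter or block. Cdkn1a, Cdkn1c and Cdkn2b stay above 0 and Cdkn1b, Lmnb1 and Hmgb1 below 0 in all 14 alternatives, while Cdkn2a, Trp53 and Mdm2 cross it.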

How the data were processed

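Mouse epidermal RNA was read in 4 libraries of oligo(dT)-selected, fragmented mRNA, sequenced as DNA nanoballs per the labels' protocols. The submitters' processing notes name build GRCm39 and, without roles, RSEM 1.3.1, Bowtie2 2.3.4.3 and DESeq2 1.4.5. Strandedness is not given in the sources used; neither are the gene annotation and the read filters. Estimated counts were deposited unnormalized, with 11.0% to 13.0% of values not whole. TPM and FPKM were deposited as computed by the authors, FPKM serving only for its sum. The deposited normalized count, a scaled signal, was not used, nor were the authors' group means.

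Counts were rounded and tested with edgeR 4.0.16 (R 4.3.3, limma 3.58.1), using TMM, the default filter, group as the only term and Benjamini-Hochberg adjustment over 14459 genes (3499 untested, Gdf15 among them). There were 2 residual degrees of freedom. The fit was also run on counts simulated with the same dispersion for all genes. That setting holds no library that stands apart and no gene-specific spread, so it does not test the fit on these libraries. Libraries were grouped by sample title. The 10 genes and all lists were chosen with earlier results of these data known. The rule for naming took, from each pathway list, up to 4 genes past the threshold or else the 3 with the smallest p, and the 2 genes nearest in profile to each tested gene, of which the nearest are given for those whose profile is described. Same-numbered libraries deviated with a correlation of -0.13, and the labels do not pair them. Alternatives were limma-trend on log2 TPM (pseudocount 1 or 0.1), DESeq2 1.42.0, limma-voom, other scalings, other filters, a replicate block and each library left out. Intervals and floors (3 counts) cover counting or library spread only.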

Additional observations from a re-analysis of the deposited data

How the results depend on the processing

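No setting called more than 2 of the 10 genes. Against 0 in edgeR with TMM, DESeq2 called 1 (Lmnb1), and leaving out 1 library gave 0 to 2 (Lmnb1 and Cdkn1c without cKO-labelled library 1, where the lone library of a group is assumed to vary like the other). At an unadjusted p under 0.05, edgeR with TMM gave 3 of the 9 tested, beside 32.1% of all genes. DESeq2 gave 6 of the 10, beside 25.9%, and no filter 5 of the 10, beside 27.6%. Over all genes, against 4 called, DESeq2 called 2540, upper-quartile factors 388, and leaving out 1 library 0 to 887. The replicate block called 0 of the 10 and 4 genes in all. It put 2 of the 9 tested (Lmnb1 and Cdkn1c) at an unadjusted p under 0.05, beside 21.8% of all genes. The labels give the numbers no shared animal or batch. With the numbers crossed, added after seeing the data, 0 genes were called. In that fit, 5 of the 9 tested had an unadjusted p under 0.05, beside 37.4% of all genes.

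The log2 fold change of Mdm2, 0.03 with TMM, was -0.010 with DESeq2, -0.0098 with median-of-ratios factors, -0.13 on log2(TPM + 1), -0.14 on log2(TPM + 0.1) and -0.12 to 0.16 with 1 library left out. That of Cdkn2a ran from -2.55 to 0.33 and that of Trp53 from -0.33 to 0.013 with 1 library left out. On log2(TPM + 1) the median of all genes moved to -0.16, and genes at an unadjusted p under 0.05 split into 1496 higher and 2965 lower, against 2391 and 2250 with TMM. The causes were not tested. Depth limits Cdkn2a and Gdf15, whose counts were at most 17 and 3.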
